A study of Mus musculus with 4 samples.

Results

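The genes of meiotic recombination and chromosome synapsis were followed in RNA from whole mouse testis. The 38 genes were taken by name, for their known meiotic roles. All 38 had a row among the 49492 gene rows of the count table, 37 under the listed symbol and 1, Hei10, as Ccnb1ip1, the symbol for which RefSeq gives Hei10 as a synonym. By the labels the knockdown mice carried a Spry1 knockdown made with the hairpin shSpry1 and had received LPS (lipopolysaccharide, which triggers inflammation as part of the outer membrane of certain bacteria). The labelled controls were WT mice with a control hairpin, shControl, that had received LPS as well. Each group had 2 libraries, and all came from the testes of male C57BL/6J mice. The sources used here do not give the animals' age, the time after LPS, how the hairpins were delivered or whether the replicates were separate animals, so the p-values reflect the spread among these 4 libraries alone, which may be technical.

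The headings of the count columns are LPS and NC. They were taken to mean the knockdown (LPS) and shControl (NC), although both groups have LPS in their titles, so this reading is not an exact match. Should they mean mice with and without LPS instead, the differences are those of LPS and not of the knockdown. The groups are therefore called the LPS and the NC libraries, and a positive log2 fold change means a higher level in the LPS libraries. Spry1 itself had 26 and 17 counts in LPS against 45 and 41 in NC libraries (log2 fold change -0.82 ± 0.28, SE, adjusted p = 0.0212). Libraries held 17612342 to 22451132 counts, of which the meiotic genes took 0.407% to 0.434%. Markers of germ cells, Sertoli cells and Leydig cells were all detected, as whole testis would give.

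Meiosis reduces the chromosome number, and in its long prophase homologous chromosomes pair, recombine and are held together by the synaptonemal complex, a protein ladder built on chromosome axes rich in meiotic cohesins. Recombination starts with programmed DNA double-strand breaks made by the SPO11 enzyme at sites that PRDM9 marks by histone methylation. The strand-exchange proteins then pair the broken ends with the homologous chromosome, and a subset of the joints is matured into crossovers. In the testis these genes act mainly in spermatocytes, so that in bulk tissue a lower level can mean fewer spermatocytes or less RNA in each, which cannot be told apart here.

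Among the 37 genes with enough counts to be tested, 12 rose and 7 fell in the LPS libraries, and 18 were not called (edgeR's quasi-likelihood test, Benjamini-Hochberg adjusted p under 0.05). The meiotic genes were thus called higher in 32.4% and lower in 18.9%, against 15.2% higher, 16.3% lower and 31.5% either way over all 20855 genes tested. These counts depend on single libraries and on the tool: 5 members rose without NC replicate 2, 3 fell without LPS replicate 2, and DESeq2 called 6 higher and 4 lower. The median log2 fold change was 0.02 for the meiotic genes and 0.00 for all genes. Both LPS libraries lay above both NC libraries in 13 of the 37 genes and below them in 11, where 32.1% and 32% of all genes did so. The share of meiotic genes whose groups lay apart, 64.9%, was thus close to the 64.1% of all genes. The largest changes were those of Prdm9 and Rad21l, at about 2.11 and 1.98 times the NC level, and of Meiob and Mnd1, at 50.4% and 47.1% of it. Their log2 fold changes lay at percentiles 97.0, 96.5, 3.04 and 2.41 of all genes tested, so other genes changed more in each direction. These 4 were the members whose log2 fold change was past 0.9 in either direction.

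**Figure D1:**
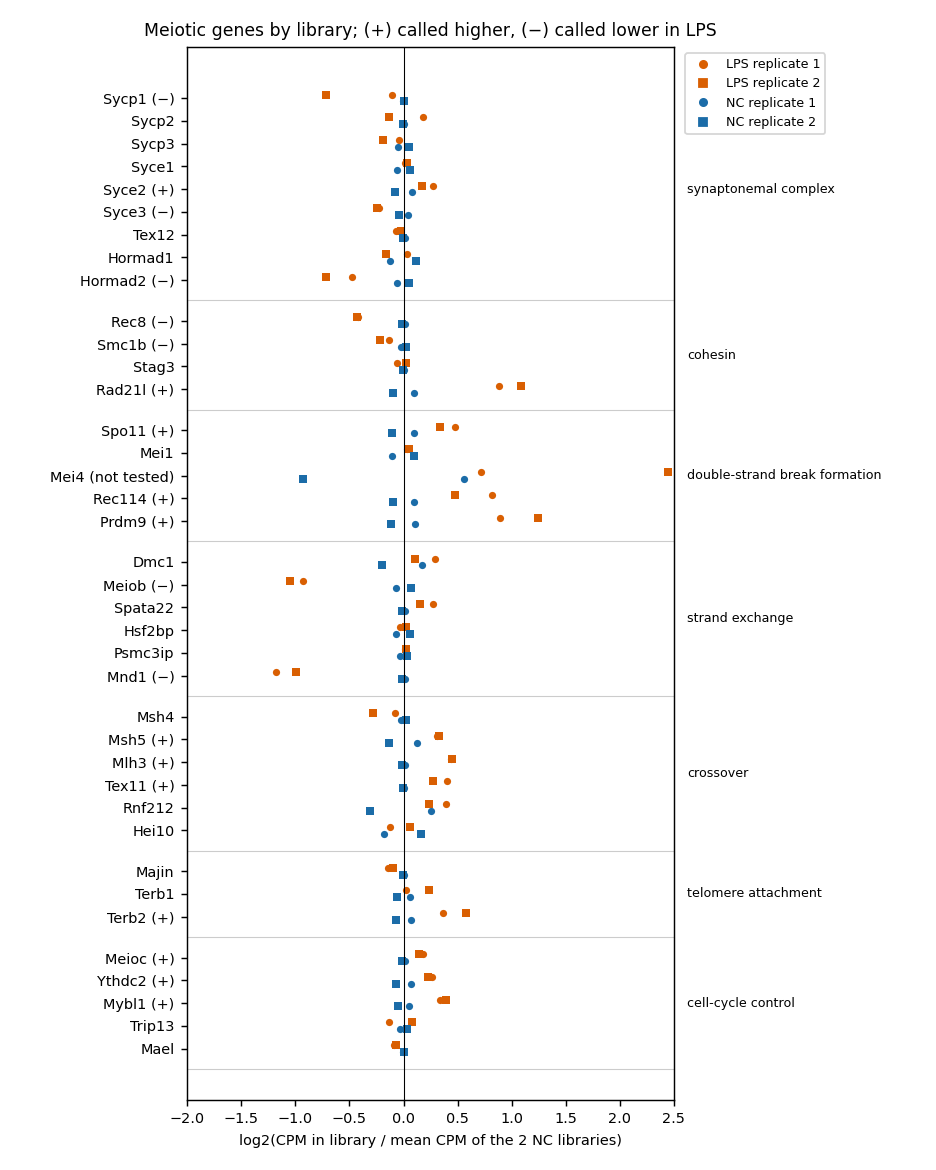
Each row is a meiotic gene and each point a library, as the log2 ratio of its CPM to the mean CPM of the 2 NC libraries, with LPS libraries in orange and NC libraries in blue. The LPS points of Prdm9 and Rad21l lie near 1 to the right, those of Meiob and Mnd1 near 1 to the left, and those of Syce1, Psmc3ip and Stag3 lie on the NC points.

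The upstream sequences of 6 members are shown because these are the 2 largest rises (Prdm9 and Rad21l) and the 2 largest falls (Mnd1 and Hormad2) with a sequence in the table, together with Sycp3 and Hormad1, which were not called and hold both an E2F match and a pair of E-boxes. Each is the 250 bases before the RefSeq start site (GRCm38.p6), on the strand of the gene. Capitals mark matches on either strand to the MYB motif AACNGNC (the family of Mybl1), the STRA8 motif CNCCTCAG, the E-box CACGTG, the E2F motif TTCCCGC, the core TGACG of the cyclic AMP response element, and the kappaB element bound by NF-kB. The windows are chr17:15564355-15564604 (minus strand) for Prdm9, chr2:151668534-151668783 (minus) for Rad21l, chr3:84155787-84156036 (minus) for Mnd1, chr11:4441083-4441332 (minus) for Hormad2, chr10:88459337-88459586 (plus) for Sycp3 and chr3:95559427-95559676 (plus) for Hormad1.
Prdm9: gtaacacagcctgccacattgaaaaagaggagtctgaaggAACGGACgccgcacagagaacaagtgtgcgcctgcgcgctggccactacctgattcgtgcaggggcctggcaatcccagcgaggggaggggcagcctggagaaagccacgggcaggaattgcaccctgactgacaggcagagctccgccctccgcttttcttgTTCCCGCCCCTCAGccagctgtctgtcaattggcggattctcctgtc
Rad21l: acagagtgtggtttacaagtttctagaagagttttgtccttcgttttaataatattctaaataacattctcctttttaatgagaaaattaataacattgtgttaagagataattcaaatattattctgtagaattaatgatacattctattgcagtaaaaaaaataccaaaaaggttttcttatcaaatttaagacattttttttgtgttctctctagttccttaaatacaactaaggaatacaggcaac
Mnd1: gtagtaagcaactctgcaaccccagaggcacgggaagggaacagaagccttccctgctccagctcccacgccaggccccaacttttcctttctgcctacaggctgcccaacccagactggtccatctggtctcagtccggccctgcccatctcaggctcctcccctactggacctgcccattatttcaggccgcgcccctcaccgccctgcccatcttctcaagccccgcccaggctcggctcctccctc
Hormad2: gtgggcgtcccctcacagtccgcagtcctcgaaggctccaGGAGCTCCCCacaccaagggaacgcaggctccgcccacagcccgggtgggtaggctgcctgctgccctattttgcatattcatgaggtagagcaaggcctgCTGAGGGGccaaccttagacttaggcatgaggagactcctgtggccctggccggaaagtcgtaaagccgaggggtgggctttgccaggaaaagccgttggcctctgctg
Sycp3: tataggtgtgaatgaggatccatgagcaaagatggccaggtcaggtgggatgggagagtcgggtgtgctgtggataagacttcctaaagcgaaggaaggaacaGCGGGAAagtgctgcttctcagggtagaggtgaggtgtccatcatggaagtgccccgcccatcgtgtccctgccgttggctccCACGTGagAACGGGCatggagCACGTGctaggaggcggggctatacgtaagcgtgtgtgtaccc
Hormad1: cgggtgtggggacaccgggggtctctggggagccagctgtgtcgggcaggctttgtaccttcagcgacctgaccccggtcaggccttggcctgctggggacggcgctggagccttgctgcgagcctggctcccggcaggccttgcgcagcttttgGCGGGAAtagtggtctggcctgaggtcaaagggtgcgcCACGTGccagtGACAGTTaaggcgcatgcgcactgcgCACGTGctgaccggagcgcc

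The Prdm9 window held a MYB match and, further down, an E2F match that overlaps a STRA8 match. Sycp3 and Hormad1 each held a pair of E-boxes, an E2F match and a MYB match. Rad21l, with 25.6% G and C bases, and Mnd1, with 63.6%, held none of the 6 motifs, and Hormad2 held a STRA8 and a kappaB match. Among the 31 members with a promoter in the table, the E2F motif was present in 29.0% and the E-box in 22.6%, against 3.82% and 6.02% of all 32851 promoter windows. The MYB motif was in 35.5% of the members against 27.7% of all windows, the STRA8 motif in 9.68% against 6.42%, the TGACG core in 19.4% against 17.8% and the kappaB element in 6.45% against 7.25%. Each member had a single window, the nearest to its deposited 5′ end. The windows of all genes were not reduced to a single window per gene, so the shares are counted on unlike units. For only 24 of the 31 windows does the RefSeq start site, where the window ends, lie within 100 bases of the deposited 5′ end of the gene. This group holds all 6 printed here. The members' windows were also richer in G and C bases, with a median of 58.0% against 52.4%, whose part in these shares was not tested. A match is a description of the letters and not a measured binding site.

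Of the 4 tested double-strand break genes, 3 rose and 0 fell, and the median log2 fold change was 0.54. Over all genes tested, 15.2% rose and 16.3% fell, and whether so small a group differs from that was not tested. Prdm9, the histone methyltransferase that marks hotspots, stood at 16.0 and 20.4 CPM in the LPS libraries, against 9.26 and 7.93 CPM in the NC libraries. CPM are counts divided by the TMM-scaled library size. Every LPS value was above every NC value, with a log2 fold change of 1.07 ± 0.12 (SE) and an adjusted p of 4.29e-09 (edgeR). Spo11, the enzyme that makes the breaks, stood at 28.7 and 26.1 CPM against 22.1 and 19.2 CPM. It rose by 0.41 ± 0.09 on the log2 scale (adjusted p = 0.000393), without overlap between the groups. Both calls held in all 11 alternatives.

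Rec114, which encodes a part of the axis-bound complex that activates SPO11, stood at 4.05 and 3.19 CPM in the LPS libraries and 2.45 and 2.14 CPM in the NC libraries. Its log2 fold change was 0.66 ± 0.21 (adjusted p = 0.0139). DESeq2 did not call it (adjusted p = 0.197), nor did edgeR once LPS replicate 1 (0.47, adjusted p = 0.185) or else NC replicate 2 (0.57, adjusted p = 0.0851) was left out. Adjusted p ranged from 0.00512 to 0.197 over the alternatives. Of the exon bases of Rec114, 26.9% are shared with Nptn on the opposite strand. Ankrd31, whose product binds REC114, rose by 0.28 ± 0.06 (adjusted p = 0.000656). Ccdc36 (Iho1) and Gm960 (Top6bl), also of break formation, were not called. Their log2 fold changes were 0.19 ± 0.09 (adjusted p = 0.102) and 0.18 ± 0.22 (adjusted p = 0.583). Mei1, needed for break formation, had 81 and 74 counts against 82 and 88 and a log2 fold change of 0.04 ± 0.18. Mei4, the partner of REC114, had 3 and 9 counts against 3 and 1, too few to be tested, so no difference could be detected at this depth.

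The genes of the reader of the PRDM9 mark and of the inducer of meiosis also rose. Zcwpw1, a histone reader of that mark, stood at 63.4 and 65.3 CPM in the LPS libraries, against 41.2 and 43.4 CPM in the NC libraries (log2 fold change 0.61 ± 0.07, adjusted p = 3.49e-09). Stra8, the transcription factor that starts meiosis in response to retinoic acid, stood at 47.2 and 57.4 CPM against 28.4 and 31.2 CPM (0.81 ± 0.08, adjusted p = 3.94e-10). The ratio of Prdm9 to Zcwpw1, each scaled by length, was 0.333 and 0.412 in the LPS libraries, against 0.297 and 0.242 in NC libraries. Prdm9 thus exceeded its reader's rise by 0.46 ± 0.14 on the log2 scale.

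Meiotic cohesins moved in both directions. Cohesin is a ring of SMC proteins closed by a kleisin, and meiotic cells swap its somatic subunits for the kleisins REC8 and RAD21L and the subunits SMC1B and STAG3. Rad21l stood at 3.85 and 4.42 CPM in the LPS libraries, against 2.22 and 1.95 CPM in the NC libraries, and rose by 0.98 ± 0.20 on the log2 scale (adjusted p = 0.000278). Rec8 stood at 36.2 and 35.9 CPM against 49.0 and 47.9 CPM, and fell by 0.43 ± 0.07 (adjusted p = 9.04e-06). Neither gene's groups overlapped, and both calls held in all 11 alternatives. The ratio of the kleisins per length, Rad21l over Rec8, was 0.176 and 0.204 in the LPS libraries, against 0.0752 and 0.0673 in NC libraries, a difference of 1.41 ± 0.22 on the log2 scale.

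Smc1b had 399.8 and 376 CPM in the LPS libraries and 429 and 446 CPM in the NC libraries, and fell by 0.17 ± 0.05 (adjusted p = 0.00961). The call of this small change ended when LPS replicate 2 (-0.13, adjusted p = 0.110) or NC replicate 2 was dropped (-0.14, adjusted p = 0.0920), and with library size as the only scaling (-0.11, adjusted p = 0.0872), while adjusted p ranged from 0.00259 to 0.110. Stag3 was not called, at 455 and 482 CPM against 476 and 474 CPM, with a 95% interval of the log2 fold change from -0.12 to 0.08. The somatic counterparts Rad21 and Smc1a rose by 0.30 ± 0.05 and 0.47 ± 0.07, while Smc3, the subunit that somatic and meiotic rings share, fell by 0.21 ± 0.05. The length-scaled ratio of Smc1b to Smc1a was 12.0 and 10.4 in the LPS libraries, against 17.3 and 17.5 in NC libraries, whereas Smc1b to Smc3 was 2.26 and 2.12 against 2.05 and 2.22, with overlap. Stag1 and Stag2 were not called (log2 fold changes 0.12 ± 0.07 and -0.08 ± 0.07).

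The synaptonemal complex and axis genes included Syce1, the most abundant member, and 5 of the 9 were not called. Levels between genes are compared as FPKM, the CPM divided by the exon length in kilobases. Syce1, a central-element protein, had a mean of 712 FPKM in the LPS libraries and 700.4 FPKM in the NC libraries and made up 36.6% of the summed FPKM of all members. Its 95% interval ran from -0.08 to 0.13 on the log2 scale. In this group 1 gene rose and 3 fell, with a median log2 fold change of -0.06, beside 15.2% higher and 16.3% lower over all genes. Those not called also held Sycp2 and Sycp3, which form the lateral elements, the central-element gene Tex12, and Hormad1, which encodes an axis protein, at -0.11 to 0.03. Of the Sycp3 exon bases, 52.2% are shared with Chpt1 on the opposite strand. Sycp2 became a call without LPS replicate 2 (0.18, adjusted p = 0.0201) and Sycp3 without LPS replicate 1 (-0.19, adjusted p = 0.0241).

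Sycp1, which encodes the transverse filament that joins the lateral elements, was the member with the widest spread between replicates among those over 100 CPM. It stood at 231 and 151 CPM in the LPS libraries, against 247 and 250.01 CPM in the NC libraries. Both LPS values were lower, the second by far, and the log2 fold change was -0.38 ± 0.09 (adjusted p = 0.000943). Without LPS replicate 2 it was -0.11 (adjusted p = 0.231), and without LPS replicate 1 it was -0.71, so that a single library sets its size. DESeq2 did not call it either, with the highest adjusted p of a range from 7.45e-25 to 0.475.

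Syce2, another central-element gene, stood at 300.3 and 279 CPM in the LPS libraries and 262 and 234 CPM in the NC libraries, and rose by 0.22 ± 0.06 (adjusted p = 0.00228). Leaving out NC replicate 2 ended this call (0.15, adjusted p = 0.103, in a range of 4.38e-05 to 0.103). Syce3, also of the central element, stood at 30.8 and 30.3 CPM against 37.0 and 35.03 CPM and fell by 0.24 ± 0.08 (adjusted p = 0.0148). Dropping LPS replicate 2 (-0.22, adjusted p = 0.0752) or NC replicate 1 ended the call (-0.19, adjusted p = 0.165), as did scaling by library size only (adjusted p = 0.0780) and DESeq2 (adjusted p = 0.129), in a range of 0.00894 to 0.165. Hormad2, which encodes an axis protein that monitors unsynapsed chromosomes, was scarcer, at 4.76 and 4.03 CPM against 6.35 and 6.86 CPM. It fell by 0.58 ± 0.16 (adjusted p = 0.00378), while its paralogue Hormad1 had a log2 fold change of -0.06 ± 0.07. DESeq2 did not call Hormad2 (adjusted p = 0.0953), and edgeR did not when LPS replicate 2 was dropped (-0.47, adjusted p = 0.05003), in a range of 0.00147 to 0.0953.

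The strand-exchange genes held the largest falls of the list, in 2 of 6 members, while 0 rose (all genes: 16.3% lower, 15.2% higher). Meiob, which encodes a single-strand DNA-binding protein related to RPA and spans chr17:24804382-24839787 (mm10, plus strand), stood at 8.36 and 7.72 CPM in the LPS libraries, against 15.2 and 16.7 CPM in the NC libraries. It fell by 0.98 ± 0.11 on the log2 scale (adjusted p = 1.11e-08). Mnd1 stood at 7.70 and 8.72 CPM against 17.6 and 17.3 CPM, and fell by 1.09 ± 0.11 (adjusted p = 6.46e-10). The groups lay far apart for both genes, and neither call was lost in any of the 11 alternatives.

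Both gene products work in a complex with another member, and the partner genes were not called. MEIOB acts with SPATA22, whose gene had 6.63 and 6.09 CPM in the LPS libraries and 5.54 and 5.45 CPM in the NC libraries (log2 fold change 0.21 ± 0.15, adjusted p = 0.288). The length-scaled ratio of Meiob to Spata22 was 2.55 and 2.56 in the LPS libraries, against 5.56 and 6.20 in NC libraries, a difference of -1.20 ± 0.19 on the log2 scale. Of the Spata22 exon bases, 63.1% also belong to Olfr20 on the same strand, so its level is uncertain. MND1 acts with the PSMC3IP protein (HOP2) to stimulate DMC1, and Psmc3ip was the most abundant gene of the group, at 392 and 397 CPM against 381 and 398 CPM. Of its exon bases, 21.2% are shared with Mlx on the opposite strand. Its 95% interval was -0.08 to 0.12 on the log2 scale, and the ratio of Mnd1 to Psmc3ip was 0.0408 and 0.0457 in the LPS libraries, against 0.0958 and 0.0903 in NC libraries (difference -1.11 ± 0.12).

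Dmc1, the meiosis-specific recombinase, had 10.2 and 8.95 CPM against 9.35 and 7.25 CPM, with overlap and a log2 fold change of 0.20 ± 0.13. Hsf2bp, which brings BRCA2 to meiotic breaks, was not called (0.00 ± 0.07), whereas the gene of its partner BRME1, deposited as 4930432K21Rik, fell by 0.24 ± 0.06 (adjusted p = 0.00258). Other genes of this step outside the list also fell. Mcmdc2, an MCM-related gene needed for strand exchange, had 38 and 21 counts against 72 and 44, and fell by 0.79 ± 0.26 (adjusted p = 0.0176). Tex15, whose loss blocks meiotic recombination in mice, fell by 0.33 ± 0.08 (adjusted p = 0.000861).

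**Figure D2:**
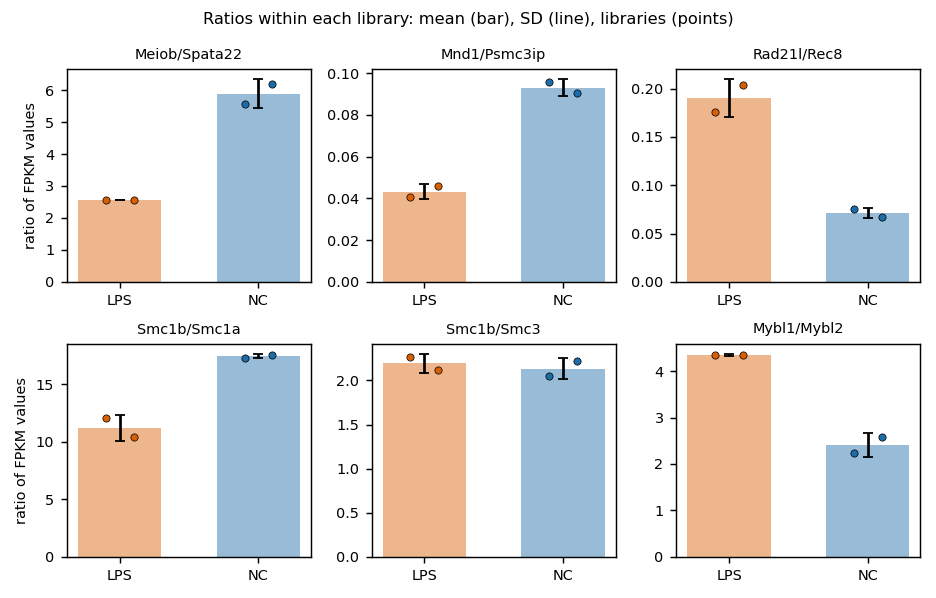
Each panel gives the ratio of the length-scaled levels of a pair of genes in the LPS libraries (orange) and the NC libraries (blue), with the mean as a bar, the SD as a line and each library as a point. Meiob over Spata22, Mnd1 over Psmc3ip and Smc1b over Smc1a were lower in the LPS libraries, Rad21l over Rec8 and Mybl1 over Mybl2 were higher, and Smc1b over Smc3 overlapped.

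In all, 18 such pairs were formed, and with 2 libraries a group the exact permutation test, two-sided, cannot go below a p of 0.333. Some pairs are given by their ratios only. Where a difference is given, it has an SE that combines those of its genes. This SE takes the 2 genes as independent, although both were measured in the same libraries, so it is not the spread of the ratios. Ratios within a library do not depend on library size or scaling.

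Of the 6 crossover genes, 3 rose and 0 fell, with a median log2 fold change of 0.31 (all genes: 15.2% higher, 16.3% lower). Mlh3, which encodes the endonuclease subunit that resolves crossovers and was the most abundant of the group per length, stood at 33.9 and 34.1 CPM in the LPS libraries, against 25.2 and 24.8 CPM in the NC libraries. It rose by 0.44 ± 0.08 (adjusted p = 2.79e-05) and kept this call in all 11 alternatives. Msh4 and Msh5, whose products form a clamp on recombination joints, had log2 fold changes of -0.17 ± 0.12 and 0.32 ± 0.12, and 1.8% of the Msh4 exon bases are shared with Gm24395 on the opposite strand. Msh5 was called (adjusted p = 0.0462) with 10.4 and 10.6 CPM against 9.17 and 7.64 CPM.

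Tex11, the only X-linked member, stood at 10.03 and 9.17 CPM against 7.62 and 7.59 CPM and rose by 0.34 ± 0.13 (adjusted p = 0.0369). The calls of Msh5 and Tex11 were each lost in 5 alternatives. For Msh5 these were DESeq2, no filter on low counts, and the removal of LPS replicate 1 (log2 fold change 0.33, adjusted p = 0.0942), of LPS replicate 2 (log2 fold change 0.31, adjusted p = 0.117) and of NC replicate 2 (log2 fold change 0.20, adjusted p = 0.368), in a range of 0.0182 to 0.368. For Tex11 they were DESeq2, no filter, and the removal of LPS replicate 1 (log2 fold change 0.27, adjusted p = 0.211), of NC replicate 1 (log2 fold change 0.35, adjusted p = 0.106) and of NC replicate 2 (log2 fold change 0.34, adjusted p = 0.110), in a range of 0.0151 to 0.287. Rnf212 and Hei10, both encoding RING-finger proteins that act in the choice of crossover sites, were not called, at 0.31 ± 0.23 and -0.03 ± 0.16.

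The telomere-attachment genes encode the complex that ties chromosome ends to the nuclear envelope, on which chromosomes move as they pair. Terb2 rose by 0.47 ± 0.18 (adjusted p = 0.0419), with 4.36 and 5.03 CPM in the LPS libraries and 3.54 and 3.21 CPM in the NC libraries. Terb1, the most abundant of the 3, had 50.1 and 58.1 CPM against 51.4 and 47.2 CPM with overlap (0.13 ± 0.07), and Majin had a log2 fold change of -0.12 ± 0.09. Terb2 was no longer called with DESeq2 or on removal of LPS replicate 2 (log2 fold change 0.37, adjusted p = 0.230), of NC replicate 1 (log2 fold change 0.55, adjusted p = 0.0634) or of NC replicate 2 (log2 fold change 0.40, adjusted p = 0.176), in a range of 0.0222 to 0.306. Terb1 became a call without LPS replicate 1 (0.24, adjusted p = 0.0209) and with library size only (adjusted p = 0.0392).

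Of the 5 regulators grouped with cell-cycle control, 3 rose and 0 fell (all genes: 15.2% higher, 16.3% lower). Mybl1, the MYB-family factor A-MYB that drives many pachytene genes, stood at 65.4 and 67.9 CPM in the LPS libraries, against 53.5 and 50.02 CPM in the NC libraries. It rose by 0.36 ± 0.07 (adjusted p = 3.52e-05), a call that held in all 11 alternatives. Its paralogue Mybl2, of dividing cells, fell by 0.50 ± 0.11 (adjusted p = 0.000306), so the length-scaled ratio of Mybl1 to Mybl2 was 4.36 and 4.34 in the LPS libraries, against 2.23 and 2.58 in NC libraries.

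Meioc and Ythdc2, whose products bind each other and keep cells in meiotic prophase, rose by 0.16 ± 0.06 (adjusted p = 0.0291) and 0.24 ± 0.09 (adjusted p = 0.0386). Meioc had 112 and 108 CPM in the LPS libraries and 99.4 and 97.4 CPM in the NC libraries, and Ythdc2 had 22.1 and 21.5 CPM against 19.3 and 17.6 CPM. The groups did not overlap for either gene. DESeq2 called neither. Without LPS replicate 1 the log2 fold change was 0.14 for Meioc (adjusted p = 0.135) and 0.22 for Ythdc2 (adjusted p = 0.143), and without NC replicate 2 it was 0.15 for Meioc (adjusted p = 0.153) and 0.18 for Ythdc2 (adjusted p = 0.270), so that both calls were lost. Meioc was also not called once NC replicate 1 was dropped (0.18, adjusted p = 0.0684), nor Ythdc2 once LPS replicate 2 was dropped (0.26, adjusted p = 0.0764) or low counts were left unfiltered. Adjusted p ranged from 0.00266 to 0.153 for Meioc and from 0.0111 to 0.270 for Ythdc2. Mael, a piRNA-pathway factor and the most abundant of the 5 per length, was not called at 342 and 347 CPM against 362 and 365 CPM (-0.08 ± 0.05), though both LPS values lay below both NC values, and Trip13, an ATPase that strips HORMAD proteins from synapsed axes, had -0.03 ± 0.14.

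The calls were also set out by level, with no test between classes. Of the 15 tested members under 5 FPKM, 7 rose and 1 fell, with a median log2 fold change of 0.24, where 15.3% of all genes of that level were called higher and 11.6% lower (median 0.05). Of the 13 members from 5 to 50 FPKM, 4 rose and 3 fell, with a median of 0.00, where 16.5% of all genes were called higher and 20.8% lower (median -0.02). Of the 9 members at 50 FPKM or more, 1 rose and 3 fell, with a median of -0.08 and a range of -0.38 to 0.22. All genes at that level had the same median of -0.08, with 8.34% called higher and 36.2% lower, so the falls among the abundant members were near the background.

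**Figure D3:**
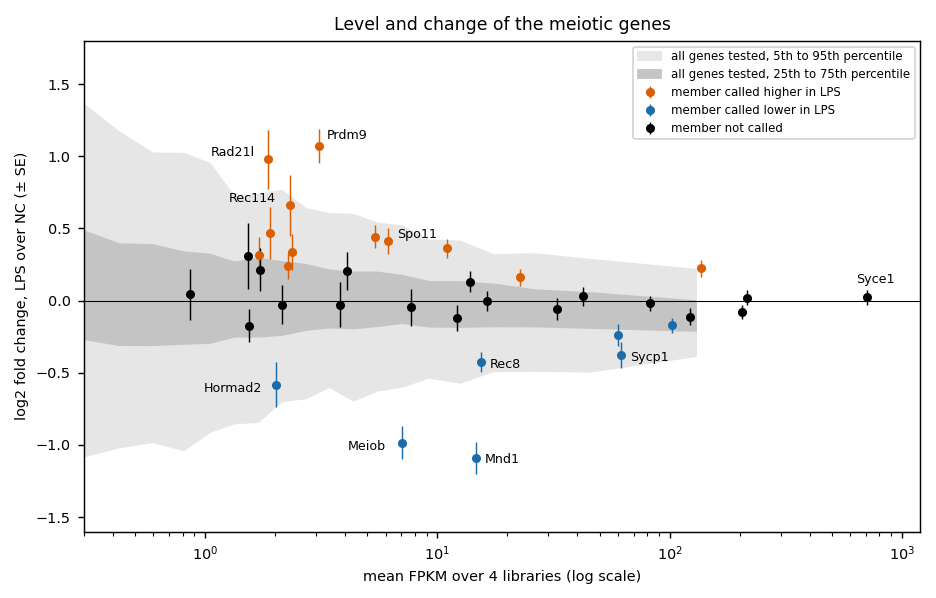
Each point is a tested meiotic gene, with its mean FPKM over the 4 libraries on a log axis and its log2 fold change with its SE, over grey bands of all tested genes in bins of level that end at the middle of the highest bin. Prdm9, Rad21l, Meiob and Mnd1 lie outside the pale band, the 5th to 95th percentile of genes of their level, and Syce1 at the right lies near 0. By construction the pale band leaves out 5% of all tested genes at each end.

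Other genes of the same pathway were taken from lists drawn up by role. Of 28 tested genes of meiotic prophase outside the list, 6 rose, 3 fell and 19 were not called, with a median log2 fold change of 0.07, and Stra8 and Zcwpw1 had the largest rises. Of 28 somatic paralogues and general repair partners, 9 rose, 4 fell and 15 were not called (median 0.05), with Smc1a the largest rise and Mybl2 the largest fall. Over all genes tested, 15.2% were called higher, 16.3% lower and 31.5% either way. Whether the shares of these lists differ from those of all genes or of the members was not tested.

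Cell markers moved beside these results. The counts for each marker list below stand beside 15.2% called higher and 16.3% lower over all genes tested. The 12 pachytene spermatocyte markers, which come from the cells in which many members act, had 2 called higher, 0 lower and a median of -0.07, and their summed level was 8852 to 8855 CPM in the LPS libraries against 9044 to 9170.1 CPM in the NC libraries. Piwil1 and Pou5f2 were the called ones. Of 11 tested spermatogonia markers, 3 rose and 0 fell (median 0.03), led by Zbtb16 and Kit, with a summed level of 429 to 439.6 CPM against 436 to 452 CPM. Most of that sum is Dmrtb1 alone, which was not called, at 349 to 357 CPM in the LPS libraries and 365 to 377 CPM in the NC libraries. Of the later germ cell markers, 9 of 13 in the elongating spermatid list were called lower and 0 higher (17980.0 to 18368 CPM summed, against 24245 to 25070 CPM) and 5 of 10 in the round spermatid list lower and 1 higher (1391 to 1455 CPM against 1471 to 1503 CPM). Sertoli cell markers were higher in 7 of 14 and lower in 1 (1029 to 1056 CPM against 785 to 791 CPM), most of it Clu, at 764 to 773 CPM in the LPS libraries and 556 to 563 CPM in the NC libraries. Leydig cell markers were lower in 5 of 9 and higher in 2 (482 to 558 CPM against 886 to 929 CPM).

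Macrophage markers were higher in 6 of 10 and lower in 3 (94.6 to 104 CPM against 67.9 to 74.7 CPM), and endothelial and peritubular markers higher in 5 of 8 and lower in 0 (302 to 308 CPM against 198 to 210.0 CPM), most of it Myh11, at 228 to 234 CPM in the LPS libraries and 150.1 to 160.5 CPM in the NC libraries. None of these lists had a marker at 0 in all libraries. The part of these shifts in the values of the meiotic genes was not tested. When the libraries were scaled to the summed pachytene markers in place of TMM, the same 12 rises and 7 falls were called. That scaling shifted the log2 fold changes of all genes by a median of only 0.04, so the calls had little room to change. It does not test the part of the other cell types or of earlier germ cells.

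**Figure D4:**
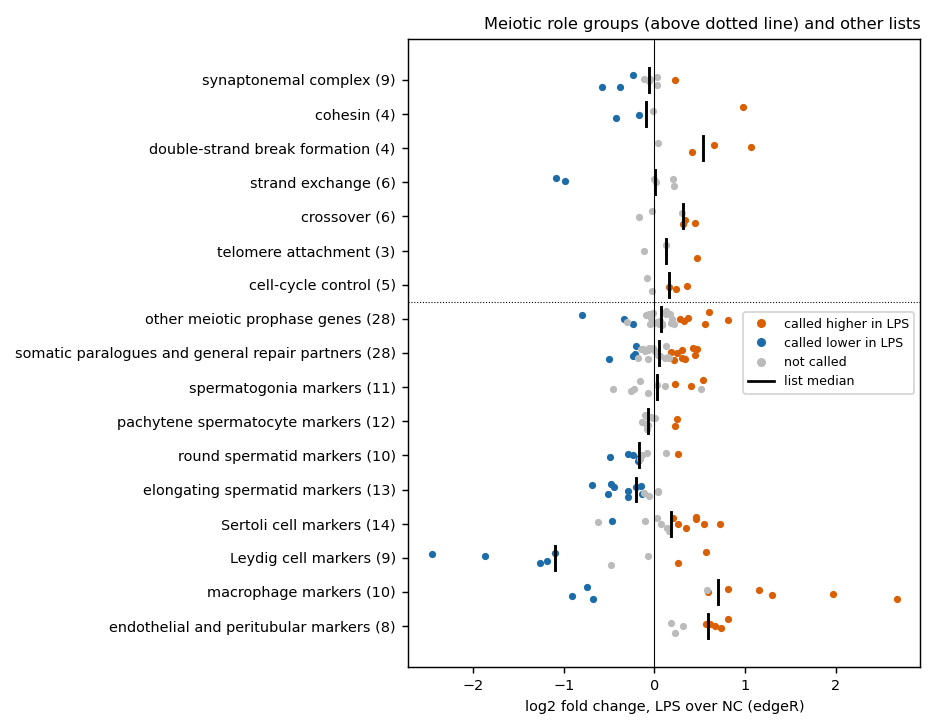
Each point is a tested gene with its log2 fold change of LPS over NC libraries, coloured by its call, and the black line is the median of its list, with the meiotic role groups above the dotted line and the other lists below. The double-strand break group has its median at 0.54, the pachytene markers crowd near 0, and the Leydig list has its median at -1.10.

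The members lie on 17 chromosomes. Within 500 kb of a member, the median share of other tested genes that were called was 30.5%, against 31.5% over the genome. Around Rad21l it was 6.25% of 16 genes, around Prdm9 18.2% of 11, around Mnd1 40.0% of 10 and around Meiob 40.0% of 50. Chromosome 17, which holds Prdm9, Meiob, Hsf2bp and Msh5, had the highest share of called genes of the chromosomes tested, 37.1%.

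Of the 19 called members, 8 kept their call in every alternative tried. These were Prdm9, Rad21l, Spo11, Mlh3 and Mybl1 among the rises and Rec8, Meiob and Mnd1 among the falls.

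**Figure D5:**
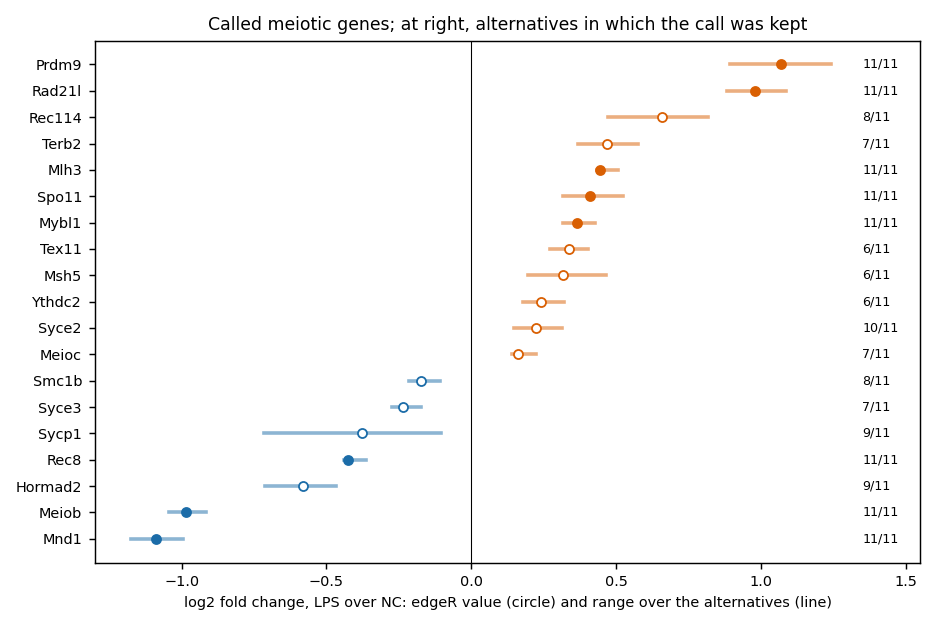
For each called meiotic gene, the circle gives the log2 fold change of LPS over NC libraries and the line its range over the 11 alternatives, with the number of alternatives that kept the call at the right. Filled circles mark the 8 genes that kept it in all 11, and Sycp1 has the widest line, from -0.71 to -0.11.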

How the data were processed

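Per the labels' protocols, total RNA from testes was taken up in TRIzol and made into stranded mRNA libraries. The authors deposited raw read counts per gene in a table with featureCounts columns. The submitters' processing notes name build mm10 and the tools featureCounts (Subread 1.5.1), STAR 2.5.3a, Trimmomatic 0.36, DESeq and edgeR 3.12.1, without roles. The sources used here do not give the strand setting, the annotation or any use of molecular identifiers, so 5 members whose exons overlap another gene are uncertain where named.

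Of the 49492 rows, the 20855 genes kept by filterByExpr were fitted with edgeR 4.0.16 (R 4.3.3). The fit used TMM factors and the quasi-likelihood test, with Benjamini-Hochberg adjustment over these genes, called under 0.05. Residual degrees of freedom were 2, and the prior ones 34.0. The SE is that implied by the F statistic. DESeq2 1.42.0 and limma 3.58.1 served as alternatives. FPKM is CPM per kilobase of the deposited exon length. The procedure was also run on simulated counts drawn with the same replicate spread for every gene, and the outcome is not reported here. That setting does not cover genes whose replicates differ more, such as Sycp1. A count of 0 allows up to 3 counts, 0.136 to 0.168 CPM in these libraries, for counting error only. Replicates differed by a chi-square of 2.41 (LPS) and 2.33 (NC) per degree of freedom, above sampling noise. Promoter windows and synonyms came from RefSeq (GRCm38.p6), and gene types from GENCODE M21, whose span 29 of the 38 members share.

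Every called member, and the most abundant member of each role per length, is given in full; from other lists, up to 2 called genes per direction, and partners or paralogues of members, are named. The neighbourhood windows, level classes and gene pairs were chosen after values were seen. The members and lists were chosen with earlier results of these data known. Some items are not reported here.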

Additional observations from a re-analysis of the deposited data

How the results depend on the processing

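Over the 11 alternatives the 37 tested genes gave 407 values, of which 365 kept their direction and side of the threshold or stayed uncalled, 38 lost the call, 4 gained one and 0 reversed. DESeq2 called 6 members higher and 4 lower, and 1454 genes higher and 1845 lower over all genes. Leaving out a library in turn gave 5 to 10 members called higher, with the fewest without NC replicate 2, and 3 to 8 called lower, with the fewest without LPS replicate 2; all genes called ranged from 2255 to 2730 higher and 2425 to 2962 lower. The median log2 fold change of the members was 0.0877 with library size only, 0.0651 when scaled to pachytene markers, and -0.0101 to 0.0638 when a library was left out. Library size only moved the split over all genes to 62.0% higher among the calls, against 48.3% with TMM, and called 13 members higher and 5 lower; with no filter on low counts 9 rose and 7 fell. limma-voom and RLE factors called the same 19 members. Same-numbered libraries did not deviate together (correlation 0.02 over genes). This cannot tell whether the numbers stand for a shared day or batch, which the labels do not give. With the replicate block 12 members rose and 7 fell, the same 19, with 3376 genes called higher and 3594 lower over all genes. The cause of the lost calls was not tested. With 2 libraries per group and genes such as Mei4 at 1 to 9 counts, small changes of scarce members could not be detected.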
